A study of Homo sapiens with 8 samples.

Results

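The ribosome that translates nuclear-encoded messages in the cytosol is built from a large and a small subunit, and its protein components are named RPL and RPS after those subunits. All rows with a symbol of RPL or RPS, digits and an optional letter A, X or L with optional digits were taken, together with RPLP0, RPLP1, RPLP2 and RPSA. This gave 85 of the 61228 genes listed in the count tables. The set holds 46 large-subunit genes, 31 small-subunit genes and 8 paralogs, which are second copies of a subunit gene elsewhere in the genome. Rows for pseudogenes and for ribosomal S6 kinases were not members, and neither were FAU and RACK1, whose products are also found in the ribosome.

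RNA was measured by sequencing in 2 established lines of human lung cancer, H1975 and HCC44, both labelled with a wild-type genotype. Per the labels, each line received DMSO, the solvent, or ACBI1 for 96 hours at a concentration given as 1 mM, a unit that is uncertain. ACBI1 is a bifunctional small molecule that brings the VHL ubiquitin ligase to the chromatin remodelling proteins SMARCA2, SMARCA4 and PBRM1 and so has them degraded. Each of the 4 groups (H1975 with DMSO, H1975 with ACBI1, HCC44 with DMSO, HCC44 with ACBI1) held 2 libraries, and nothing in the labels says whether these came from separate cultures, so p-values measure only the spread between these libraries, which may be technical. No transcript checks that the compound acted, since it removes proteins.

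Ribosomal protein genes are among the most highly transcribed in growing cells, and their products are needed in equal amounts, so they are usually expressed as a coordinated set. Most of their messages begin with a C followed by an uninterrupted run of pyrimidines, the 5′ terminal oligopyrimidine or TOP tract, through which the kinase mTORC1 and the RNA-binding protein LARP1 control translation and stability. Several subunit genes have paralogs with more restricted expression, and the product of a paralog can stand in for its partner in the ribosome.

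The tract is shown for the genes on which the results below turn: the stalk gene RPLP1, members called in 1 line, and paralogs beside their partners. Each window runs from 15 bases before the annotated start site to 15 bases from it, so the right part is the start of the first exon and lies in the 5′ UTR. Sequences are RefSeq's on GRCh38.p14, read 5′ to 3′ on the gene's strand. Capitals mark the longest run of a C followed by at least 4 pyrimidines that starts within 10 bases of the start site, as far as it lies in the window.
RPLP1, chr15:69452803-69452832, plus strand: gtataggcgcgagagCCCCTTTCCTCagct
RPL14, chr3:40457324-40457353, plus strand: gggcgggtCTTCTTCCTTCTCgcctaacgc
RPS19, chr19:41860240-41860269, plus strand: ggaaaccccgtcgttCCCTTTCCCCTggct
RPS16, chr19:39435935-39435964, minus strand: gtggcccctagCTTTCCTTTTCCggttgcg
RPS4X, chrX:72277234-72277263, minus strand: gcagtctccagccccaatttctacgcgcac
RPL39, chrX:119791616-119791645, minus strand: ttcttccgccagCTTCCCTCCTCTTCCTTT
RPL22, chr1:6199581-6199610, minus strand: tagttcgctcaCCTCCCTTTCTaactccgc
RPL22L1, chr3:170870181-170870210, minus strand: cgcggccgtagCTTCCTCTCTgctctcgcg
RPL7L1, chr6:42879601-42879630, plus strand: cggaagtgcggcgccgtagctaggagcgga
RPL26, chr17:8383179-8383208, minus strand: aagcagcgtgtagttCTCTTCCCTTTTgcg
RPL26L1, chr5:172958714-172958743, plus strand: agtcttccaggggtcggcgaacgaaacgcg
RPL36A, chrX:101390996-101391025, plus strand: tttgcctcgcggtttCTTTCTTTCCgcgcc
RPL36AL, chr14:49620612-49620641, minus strand: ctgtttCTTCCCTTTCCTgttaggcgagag
RPS27, chr1:153990747-153990776, plus strand: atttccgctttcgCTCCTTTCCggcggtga
RPS27L, chr15:63157463-63157492, minus strand: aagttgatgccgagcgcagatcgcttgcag

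The partners RPL22, RPL26, RPL36A and RPS27 all carry a tract at the start site. The paralogs RPL26L1, RPS27L and RPL7L1 hold none in this window, RPL36AL holds one that begins upstream and ends just after the start base, and RPL22L1 holds one at the start site as RPL22 does. RPL39L is not in the promoter table. Of the 68 members with a promoter in the table, 43 (63.2%) had a C at the annotated start base followed by at least 4 pyrimidines, against 4.04% of all 27305 promoters. With the run allowed to start within 10 bases, the shares were 83.8% of members and 33.3% of all promoters. The exact form was found in 1 of the 6 paralogs listed and in 42 of the 62 other members (67.7%).

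Short motifs were searched on both strands of the 300-base promoters, from 250 bases before the start site to 50 bases from it, and none of the strings contains another. CCGGAA, the core that ETS-family factors bind, was in 54.4% of member promoters and 17.6% of all. GCCATNTT, a YY1-type string, was in 16.2% and 6.82%. CACGTG, the E-box that MYC and MAX bind, was in 5.88% of member promoters and 7.43% of all, and TATAAA was in 10.3% and 12%. A match is a string in a window and does not show that a factor binds there.

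Counts assigned to genes ranged from 62467286 to 70455517 per library, and members held 3296888 to 4842486 of them. RPL10L had no count in any of the 8 libraries, which with a floor of 3 counts over 530133424 gene counts allows at most 0.00566 CPM (counts scaled to a common library size). The limit covers counting error only. The other 84 members passed the filter on low counts and were tested among 21307 genes. Markers of other cell types were low: summed immune markers lay between 1.00 and 3.46 CPM with 3 of 9 genes at 0 in all libraries, and summed endothelial markers between 0.492 and 4.22 CPM with none of 4 at 0 throughout. Summed epithelial markers (6 genes) fell from between 5077 and 5337 CPM to between 2639 and 3216 CPM in H1975 and went from between 864 and 887 CPM to between 1173 and 1601 CPM in HCC44. KRT7 held the most of this sum in every library. EPCAM overlapped in H1975, at 182 and 156 CPM, then 196 and 155 CPM. KRT8 fell in HCC44, from 210 and 186 CPM to 143 and 152 CPM. In the fold changes used below, all 6 were negative in H1975, and 4 were positive and 2 negative in HCC44. Summed fibroblast markers, nearly all COL1A1, went from between 48.3 and 71.3 CPM to between 28.9 and 34.98 CPM in H1975 and from between 67.3 and 85.2 CPM to between 202 and 397 CPM in HCC44, with 1 of 6 at 0 throughout. The part of these shifts in the results for ribosomal protein genes was not tested. In bulk RNA, fewer cells of a kind and less RNA per cell cannot be told apart.

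The first question was how much of each library the ribosomal protein genes took. In H1975 they took 5.07% and 5.44% of gene counts with DMSO and 5.57% and 6.08% with ACBI1 (replicates 1 and 2). Both ACBI1 libraries lay above both DMSO libraries, and the means differed by 0.571 percentage points. In HCC44 they took 6.96% and 6.87% with DMSO and 6.98% and 7.002% with ACBI1, a difference of 0.0765 percentage points. The groups did not overlap in HCC44 either, but the gap was smaller than the spread between the HCC44 DMSO libraries. Without the 5 members of most counts, the HCC44 groups overlapped (5.99% and 5.90% with DMSO, 5.99% and 5.93% with ACBI1) and differed by 0.014 percentage points. The exact two-sided permutation test gave p = 0.333 in each line, the smallest that 2 libraries against 2 can give. HCC44 devoted a larger share to these genes than H1975 in every library, and here too the exact permutation p was 0.333.

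**Figure D1:**
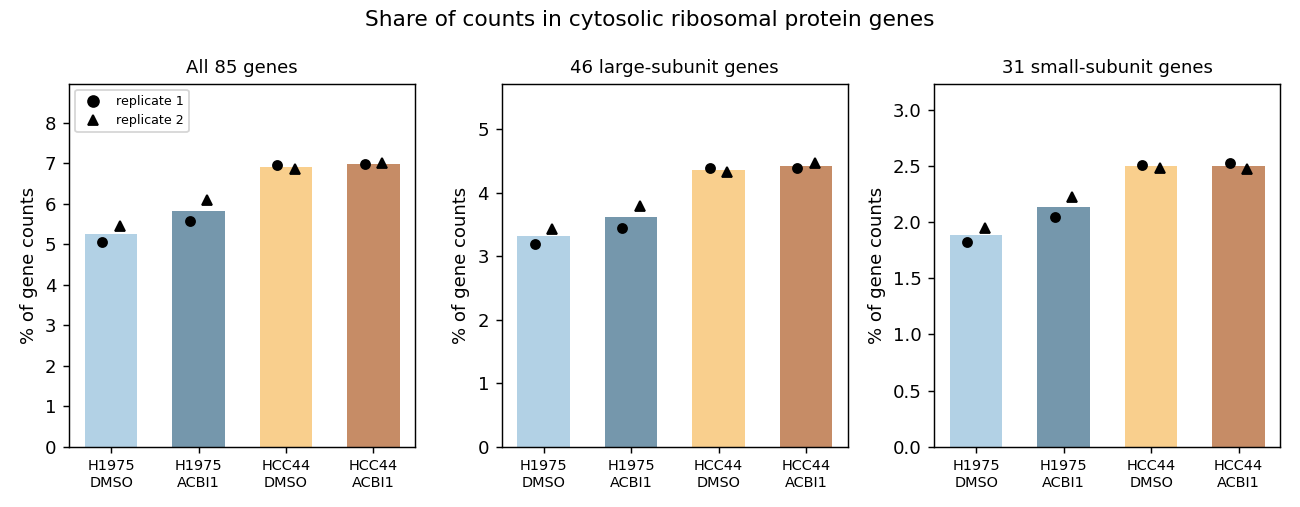
Percent of gene counts in all 85 ribosomal protein genes, the 46 large-subunit genes and the 31 small-subunit genes, by group. Bars are means of 2 libraries and symbols are the libraries; the H1975 ACBI1 libraries (5.57% and 6.08%) lie above H1975 DMSO (5.07% and 5.44%), and the HCC44 libraries lie between 6.87% and 7.002%.

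Both subunits had a higher mean share with ACBI1 in H1975. Large-subunit genes averaged 3.31% with DMSO and 3.61% with ACBI1, and small-subunit genes 1.89% and 2.13%. In HCC44 the averages were 4.35% and 4.43% for the large subunit and 2.50% with either treatment for the small. The 8 paralogs took 0.0537% and 0.0538% of counts in H1975 with DMSO and 0.0763% and 0.0761% with ACBI1, and 0.0659%, 0.0673%, 0.0729% and 0.0653% in HCC44 in the same order. In H1975, replicate 2 had the higher member share within each treatment. It also had fewer counts from mitochondrially encoded genes, at 6.06% against 9.02% with DMSO and 5.68% against 7.21% with ACBI1. With those genes left out of the denominator, the member shares in H1975 were 5.57% and 5.79% with DMSO and 5.998% and 6.45% with ACBI1.

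The rise in share and the fold changes below are on different scales. A share is relative to all counts, whereas the fold changes use trimmed mean (TMM) factors, which were 0.990 and 0.989 for H1975 DMSO and 1.146 and 1.133 for H1975 ACBI1. Under scaling by library totals, the median log2 fold change of all genes in H1975 moved from -0.01 to 0.18 and that of the 84 members from -0.06 to 0.14. In HCC44 the same change moved all genes from 0.01 to 0.09 and members from -0.08 to 0.01. The sign of the members' median therefore depends on the scaling in both lines, and directions below are relative to the TMM scale.

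With ACBI1 in H1975, most ribosomal protein genes stayed within a narrow band while a few paralogs rose and a few large-subunit genes fell. Of the 84 members, 9 (10.7%) were called at an adjusted p under 0.05 (edgeR quasi-likelihood test, Benjamini-Hochberg over all genes), 3 higher and 6 lower, where 31.3% of all genes were called, 14.6% higher and 16.7% lower. The median log2 fold change was -0.06 for members and -0.01 for all genes, and the middle 50% of members lay between -0.16 and 0.03 against -0.37 and 0.39 for all genes. No member changed by more than 1 on the log2 scale, which 17.9% of all genes did. The median SE was 0.093 for members and 0.202 for all genes. Both ACBI1 libraries lay above both DMSO libraries for 7 members (8.33%, against 33.1% of all genes tested) and below them for 30 (35.7%, against 34.2%), and they overlapped for 47. With library totals the split was 12 higher and 1 lower, with upper-quartile factors 5 and 3, and with RLE factors 3 and 4. Over all 21307 genes these settings gave 5427 higher and 2080 lower, 3758 and 2922, and 3320 and 3175. The TMM scale gave 3107 and 3556. Fewer members, and also fewer of all genes, were called when any 1 of the H1975 libraries was left out. Leaving out DMSO replicate 2 gave a members' median of 0.004, and leaving out ACBI1 replicate 1 gave 0.022.

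In HCC44 the middle 50% of members lay between -0.15 and 0.02, against -0.36 and 0.51 for all genes. Of the 84 members, 13 (15.5%) were called, 4 higher and 9 lower, where 34.9% of all genes were called, 17.5% higher and 17.4% lower. The median was -0.08 for members and 0.01 for all genes, and no member changed by more than 1, against 21.9% of all genes. The ACBI1 libraries lay above both DMSO libraries for 12 members (14.3%, against 34.1% of all genes tested), below for 45 (53.6%, against 32.7%) and overlapped for 27. With library totals the split was 8 higher and 4 lower, and with upper-quartile factors 7 and 5. Over all 21307 genes these settings gave 4534 higher and 2964 lower, and 4188 and 3259. The TMM scale gave 3720 and 3718. Fewer members, and also fewer of all genes, were called without HCC44 DMSO replicate 1 or replicate 2. The members' median was then -0.084 and -0.093.

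**Figure D2:**
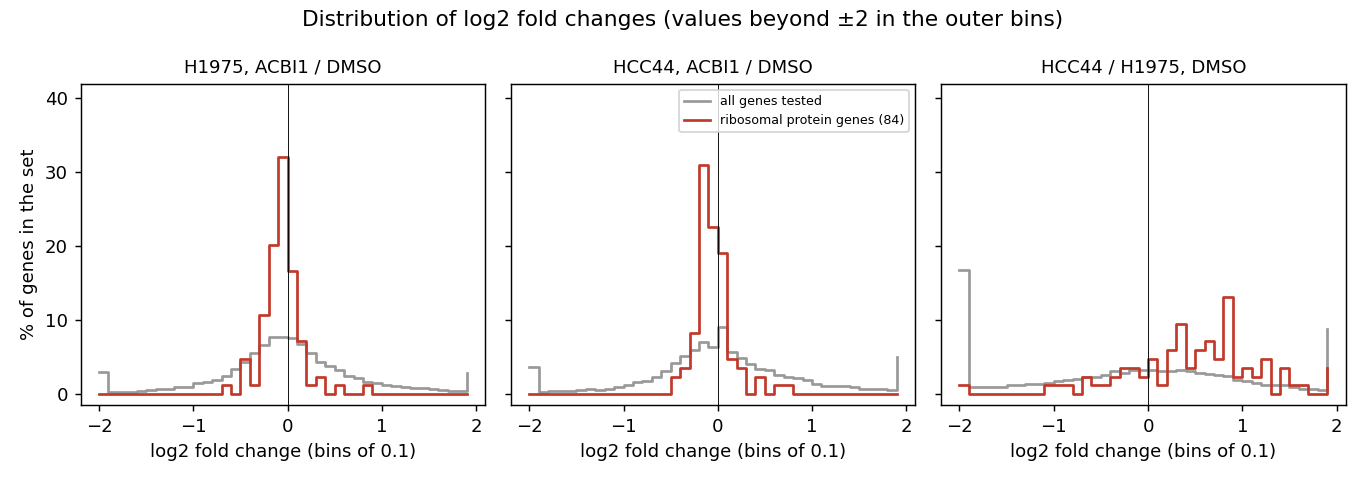
Share of genes in bins of 0.1 of log2 fold change for the 84 ribosomal protein genes tested and all 21307 genes tested, with values beyond 2 collected in the outer bins. With ACBI1 the members lie close around 0 (medians -0.06 and -0.08), whereas between the lines with DMSO they are spread around a median of 0.55.

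**Figure D3:**
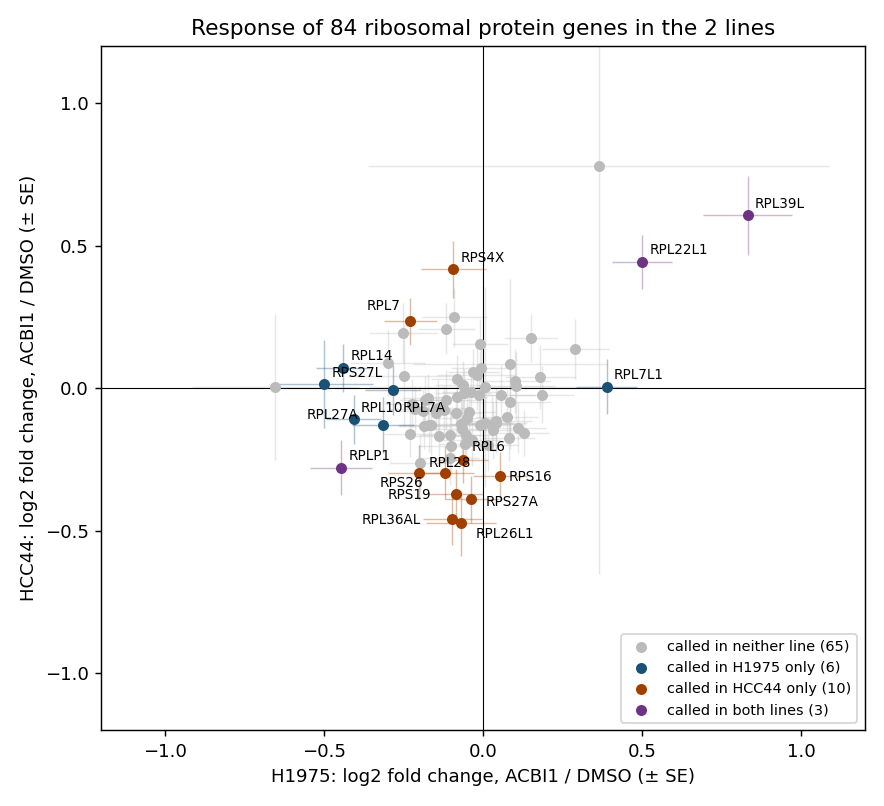
Log2 fold change with ACBI1 in HCC44 against that in H1975 for each of the 84 genes, with SE bars. Labelled genes were called in at least 1 line; 65 were called in neither, and RPL39L and RPL22L1 stand alone at the upper right. The grey point with long bars near 0.36 and 0.78 is RPL3L, which has few counts.

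Of the 7 paralogs tested, 4 were called in each line, beside 5 of the other 77 members in H1975 and 9 in HCC44. These shares were 57.1% of paralogs in each line and 6.49% and 11.7% of the others, against 31.3% and 34.9% of all genes. RPL39L (chr3:187120948-187139496 on GRCh38) encodes a paralog of RPL39, a small protein at the exit tunnel, and is best known from male germ cells. It was at 47.6 and 41.2 CPM with DMSO and 83.6 and 74.7 CPM with ACBI1 in H1975, and at 25.1 and 30.4 CPM and then 47.1 and 37.4 CPM in HCC44. All 4 ACBI1 libraries lay above the DMSO libraries of their line. The log2 fold change was 0.83 ± 0.14 (SE, adjusted p 0.00139) in H1975 and 0.61 ± 0.14 (adjusted p 0.00664) in HCC44. Without HCC44 DMSO replicate 1 the HCC44 value was 0.47 and not called (adjusted p 0.0751). Its partner RPL39 was at 585 and 584 CPM with DMSO and 504 and 525 CPM with ACBI1 in H1975, and was called in neither line (adjusted p 0.107 and 0.235).

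RPL22L1 encodes a paralog of RPL22, an RNA-binding protein of the large subunit that is known to restrain its paralog's expression. In H1975 RPL22L1 was at 89.2 and 77.6 CPM with DMSO and 121 and 115 CPM with ACBI1. In HCC44 it was at 57.7 and 55.1 CPM with DMSO and 75.2 and 78.1 CPM with ACBI1. It was higher with ACBI1 in both libraries of each line, with log2 fold changes of 0.50 ± 0.094 (adjusted p 0.00263) and 0.44 ± 0.095 (adjusted p 0.00419). RPL22 itself was at 54.7 and 58.9 CPM, then 44.03 and 51.5 CPM, in H1975, and at 243 and 282 CPM, then 290 and 311 CPM, in HCC44. Its changes missed the threshold (adjusted p 0.102 and 0.187), as did the difference between them (0.44 ± 0.15, adjusted p 0.0642). The ratio of RPL22L1 to RPL22, per kilobase of transcript, went from 1.55 and 1.25 to 2.62 and 2.11 in H1975 and from 0.225 and 0.185 to 0.246 and 0.238 in HCC44. RPL39L and RPL22L1 stayed called as higher in H1975 under all 17 alternatives tried for that line, and RPL22L1 did so in HCC44 as well.

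RPL7L1, a paralog of RPL7 with a known role in ribosome assembly, rose in H1975. It was at 219 and 249 CPM with DMSO and 292 and 321 CPM with ACBI1, a log2 fold change of 0.39 ± 0.097 (adjusted p 0.0114). It was not called without H1975 DMSO replicate 1 (0.30) or ACBI1 replicate 2 (0.34). In HCC44 it was at 418 and 431 CPM, then 448 and 404 CPM, and the groups overlapped. The responses of the lines differed by -0.38, which missed the threshold (adjusted p 0.075).

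RPS27L, a paralog of RPS27 and a known p53 target, was at 24.9 and 19.2 CPM in H1975 with DMSO and 16.6 and 14.7 CPM with ACBI1. Its log2 fold change was -0.50 ± 0.15 (adjusted p 0.0295), and the call was lost without DMSO replicate 1 (-0.31), ACBI1 replicate 1 (-0.55) or ACBI1 replicate 2 (-0.39). In HCC44 it was at 16.5 and 17.6 CPM, then 15.8 and 18.6 CPM. Its responses differed by 0.51 ± 0.22 (adjusted p 0.126, not called).

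RPL26L1 and RPL36AL were called in HCC44 and not in H1975. RPL26L1 was at 19.5 and 17.9 CPM in HCC44 with DMSO and 13.7 and 13.2 CPM with ACBI1, with no overlap and a log2 fold change of -0.47 ± 0.11 (adjusted p 0.00818). Without HCC44 DMSO replicate 1 it was -0.42 and not called. In H1975 it was at 41.04, 37.7, 39.5 and 35.5 CPM, and the groups overlapped. RPL36AL, a copy of RPL36A, was at 180 and 192 CPM, then 146 and 125 CPM, in HCC44. Its log2 fold change there was -0.46 ± 0.093 (adjusted p 0.00313), called under all 17 alternatives. In H1975 it was at 121 and 120 CPM, then 113 and 112 CPM, a change of -0.10 that was not called. Their responses did not differ past the threshold between lines (adjusted p 0.104 and 0.0797). The edgeR test of this difference called none of the 7 paralogs, 4 differed at an unadjusted p under 0.05, and DESeq2 called none.

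RPL3L, the striated-muscle paralog of RPL3, had few reads in any library, between 0 and 0.505 CPM. It was called in neither line.

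**Figure D4:**
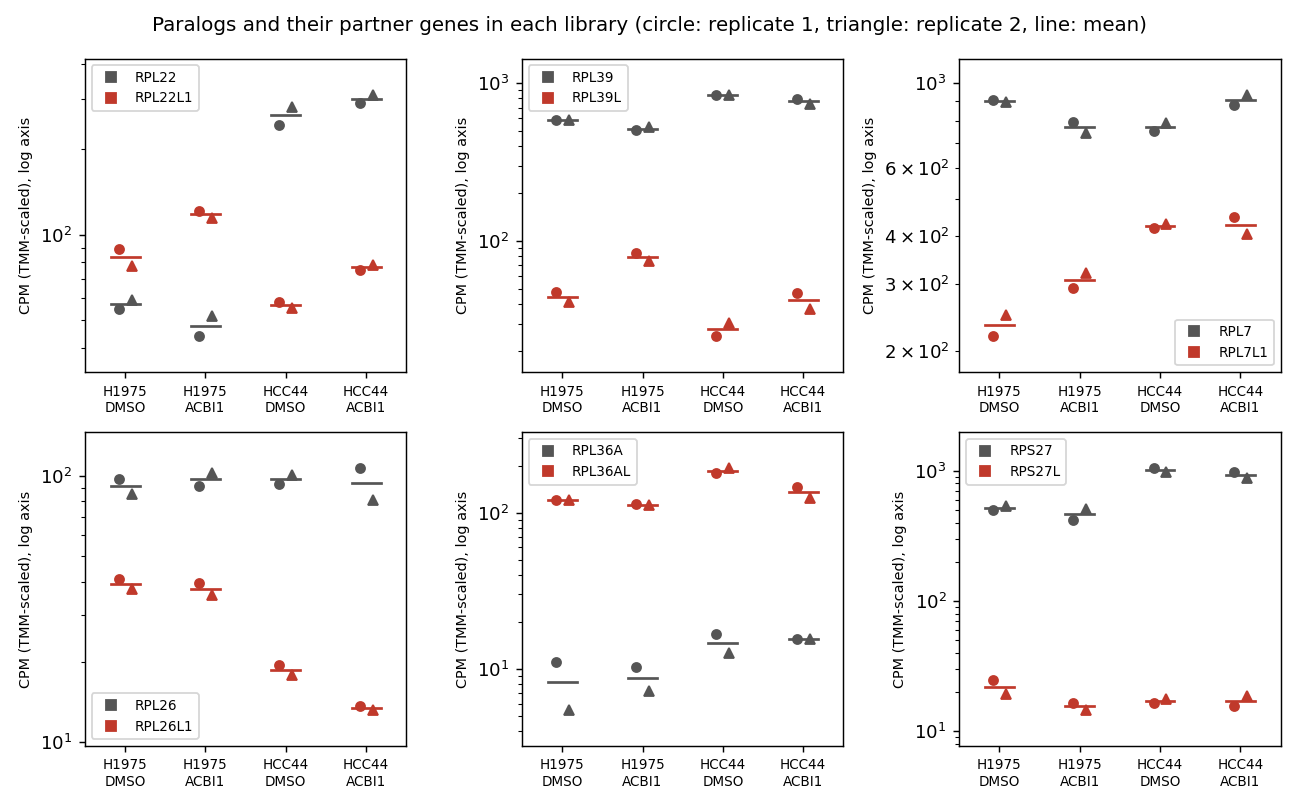
TMM-scaled CPM, on a log axis, of 6 paralogs (red) and their partners (grey) in each of the 8 libraries. RPL39L and RPL22L1 were higher with ACBI1 in all libraries of both lines, RPL7L1 in H1975, and RPL26L1 and RPL36AL were lower with ACBI1 in HCC44.

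Among the members that are not paralogs, the stalk genes lay lower with ACBI1 in every library on the TMM scale. They were not alone in this: 30 members (35.7%) lay below both DMSO libraries in H1975 and 45 (53.6%) in HCC44. RPL24 and RPL39, for example, did so in both lines. Scaled by library totals, RPLP0 overlapped in H1975 and RPLP2 in both lines. The stalk is a flexible arm of the large subunit, built from RPLP0 and the acidic proteins RPLP1 and RPLP2, that recruits translation factors. RPLP1 was at 1024 CPM in both H1975 DMSO libraries and at 760 and 744 CPM with ACBI1, and at 1071 and 1115 CPM, then 816 and 985 CPM, in HCC44. It was the only member called as lower in both lines, at -0.45 ± 0.098 (adjusted p 0.00609) and -0.28 ± 0.098 (adjusted p 0.0469). The H1975 call was lost without ACBI1 replicate 2 (-0.41) and with library totals. The HCC44 call held in 6 of 17 alternatives. It was lost with DESeq2, and without DMSO replicate 1 (-0.31), DMSO replicate 2 (-0.25) or ACBI1 replicate 1 (-0.15). RPLP0 was at 1335 and 1519 CPM, then 1214 and 1275 CPM, in H1975 and at 1983 and 1902 CPM, then 1525 and 1710 CPM, in HCC44. No overlap was seen, yet neither change was called (adjusted p 0.149 and 0.0556). RPLP2 was likewise lower in all ACBI1 libraries and not called (-0.19 and -0.08).

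Peptidyl transfer and subunit joining involve RPL3, RPL10 and RPL24. RPL10, which is added late in maturation next to the catalytic centre, was at 1854 and 1960 CPM in H1975 with DMSO and 1393 and 1485 CPM with ACBI1. The log2 fold change was -0.41 ± 0.087 (adjusted p 0.00528). The call was lost without DMSO replicate 2 (-0.32) or ACBI1 replicate 1 (-0.33) and with library totals. Its share of all member counts went from 3.62% and 3.56% to 2.87% and 2.76%. In HCC44 RPL10 was at 1768 and 1705 CPM, then 1548 and 1671 CPM, and was not called (-0.11). In GENCODE release 29, 55.5% of its exon bases are shared with other genes, DNASE1L1 among them, so its count is uncertain in that respect. RPL3 and RPL24 were called in neither line.

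RPL14, a protein of the subunit's outer surface, fell in H1975 and not in HCC44. It was at 448 and 462 CPM, then 328 and 343 CPM, in H1975, and at 514 and 555 CPM, then 542 and 581 CPM, in HCC44. The changes were -0.44 ± 0.085 (adjusted p 0.00298) and 0.07 ± 0.084 (adjusted p 0.556). Without H1975 ACBI1 replicate 1 the H1975 value was -0.37 and not called. RPL27A (552 and 601 CPM, then 424 and 503 CPM) fell by 0.31 in H1975 with an adjusted p of 0.0323, lost without DMSO replicate 2 (-0.20) or ACBI1 replicate 1 (-0.16) and held in 8 of 17 alternatives. RPL7A, named here after its values were seen, was called at -0.28 and held in 6 of 17. These 5 large-subunit genes were the only members called in H1975 that are not paralogs.

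In H1975 edgeR called none of the 31 small-subunit genes, 3 of them were lower at an unadjusted p under 0.05, and DESeq2 called none. In HCC44, 4 small-subunit genes were called as lower and 1 as higher, and DESeq2 gave the same counts. That was 16.1% called, against 34.9% of all genes. For the 46 large-subunit genes in HCC44, DESeq2 called none, where edgeR called 1 as higher and 3 as lower. In H1975 DESeq2 called 3 large-subunit genes as lower, where edgeR called 5. RPS27A, whose product is made as a fusion with ubiquitin, was at 1342 and 1378 CPM with DMSO and 1030 and 1046 CPM with ACBI1 in HCC44. It fell by 0.39 (SE 0.083, adjusted p 0.00415) and stayed called under all 17 alternatives. RPS19, which is mutated in Diamond-Blackfan anaemia, was at 1325 and 1268 CPM, then 1004 and 1001 CPM, a change of -0.37 ± 0.086 (adjusted p 0.00651). It was not called without HCC44 DMSO replicate 1 (adjusted p 0.0565). RPS16, which reaches the decoding site, was at 1226 and 1170 CPM, then 999 and 938 CPM, a change of -0.31 ± 0.084 (adjusted p 0.0151). That call was lost without DMSO replicate 1 (-0.28), DMSO replicate 2 (-0.34) or ACBI1 replicate 2 (-0.26). For these 3 genes the H1975 groups overlapped, at 634 to 691, 294 to 336 and 235 to 257 CPM. Their responses did not pass the test of a difference between the lines (adjusted p 0.0589, 0.128 and 0.0569).

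RPS4X, an X-linked gene for a small-subunit protein, rose in HCC44. It was at 596 and 635 CPM with DMSO and 826 and 816 CPM with ACBI1, a log2 fold change of 0.42 ± 0.10 (adjusted p 0.00843). Without HCC44 DMSO replicate 1 it was 0.37 and not called. RPS26, a protein at the messenger exit channel, was at 127 and 114 CPM, then 103 and 92.7 CPM, in HCC44 (-0.30, adjusted p 0.0283). That call was lost without DMSO replicate 1 (-0.22) or ACBI1 replicate 2 (-0.22). RPL28 and RPL6, named here after their values were seen, were called as lower in HCC44 at -0.30 and -0.25 and held in 7 and 8 of 17 alternatives.

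The other groups of members did not pass the test in either line. RPL5 and RPL11, which with 5S ribosomal RNA bind MDM2, lay between -0.08 and 0.07 in the log2 fold changes of both lines. The 5 exit-tunnel genes RPL4, RPL17, RPL39, RPL23A and RPL35 lay between -0.25 and -0.04 in H1975 and between -0.13 and 0.04 in HCC44. The 4 decoding-site genes RPS2, RPS3, RPS15 and RPS23 lay between -0.15 and 0.18 over both lines. RPS2 was at 2778 and 2992 CPM with DMSO and 3134 and 3270 CPM with ACBI1 in H1975, and was not called (0.15, adjusted p 0.21). RPS6, the substrate of S6 kinase, and RPSA, the laminin-receptor protein of the small subunit, were called in neither line, with RPSA at -0.23 (adjusted p 0.0524) and -0.16.

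The response differed between the lines for 3 of the 84 members (3.57%), all more positive in HCC44, against 18.6% of all genes, 10.2% more positive in HCC44 and 8.4% more negative. With library totals the split was 1 more positive and 8 more negative, and with upper-quartile factors 3 and 2. Over all 21307 genes these settings gave 1723 more positive and 2530 more negative, and 2100 and 1932. The TMM scale gave 2178 and 1789. RPL14 differed by 0.51 ± 0.12 (adjusted p 0.014). RPS4X differed by 0.51 ± 0.14 (adjusted p 0.0309). It was at 1054 and 1182 CPM, then 963 and 1134 CPM, in H1975. RPL7, a large-subunit protein near the 5S RNA, was lower with ACBI1 in H1975 (907 and 892 CPM, then 792 and 743 CPM) and higher in HCC44 (753 and 790 CPM, then 881 and 935 CPM). It differed by 0.46 ± 0.12 (adjusted p 0.02), although it was called in HCC44 only (0.23, adjusted p 0.0487) and that call held in 4 of 17 alternatives. Each of these 3 differences was lost without at least 1 library. RPL14 was not called without H1975 DMSO replicate 2 (0.44), H1975 ACBI1 replicate 1 (0.44), H1975 ACBI1 replicate 2 (0.52) or HCC44 DMSO replicate 1 (0.45). RPS4X was lost without 6 of the 8 libraries in turn, with values from 0.36 to 0.56, and RPL7 without 6, with values from 0.39 to 0.50.

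Of the 19 members called in either line, 3 were called in both, RPL39L and RPL22L1 as higher and RPLP1 as lower, and none in opposite directions. Across the 84 genes, Pearson's r between the log2 fold changes of the lines was 0.383 and Spearman's rho was 0.143. Over the 77 genes that are not paralogs these were 0.036 and 0.041. The genes share libraries and scaling, so these values are descriptive.

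More members were called between the lines than with ACBI1 in either line. With DMSO, 69 of the 84 members (82.1%) were called between HCC44 and H1975, 57 higher in HCC44 and 12 lower, where 67.9% of all genes were called, 31.6% higher and 36.4% lower. The median log2 fold change was 0.55 for members and -0.08 for all genes. Both HCC44 libraries lay above both H1975 libraries for 61 members (72.6%, against 39.9% of all genes tested), below for 17 (20.2%, against 45%), and overlapped for 6. Of the 69 calls, 56 held in all 15 alternatives tried. Without HCC44 DMSO replicate 2, fewer members, and also fewer of all genes, were called, and the members' median was 0.525.

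RPS16 had the largest difference, at 235 and 248 CPM in H1975 and 1226 and 1170 CPM in HCC44, a log2 fold change of 2.31 ± 0.088 (adjusted p 3.24e-09). RPL22 was next, with the values given above and a change of 2.21 ± 0.11. RPS19 was at 323 and 336 CPM in H1975 and 1325 and 1268 CPM in HCC44 (1.98 ± 0.089). RPL21 was at 235 and 236 CPM against 716 and 703 CPM (1.59). RPS16 and RPS19 were also among the 9 members called as lower in HCC44 with ACBI1, and their ACBI1 levels in HCC44 stayed above every H1975 library.

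Members called as lower in HCC44 included 5 of the 7 paralogs, where 36.4% of all genes were called as lower. RPL26L1 was at 41.04 and 37.7 CPM in H1975 and 19.5 and 17.9 CPM in HCC44 (-1.07 ± 0.11). RPS26 (-0.96), RPS4X (-0.86), RPS2 (-0.70) and RPL39L (-0.68) followed. RPS27L was called at -0.37 (adjusted p 0.0488), lost without H1975 DMSO replicate 1 (-0.18), HCC44 DMSO replicate 1 (-0.32) or HCC44 DMSO replicate 2 (-0.42). RPL3L was at -3.13, fitted on 32 and 6 counts in H1975 against 4 and 0 in HCC44, and was not called without H1975 DMSO replicate 1 (-1.45) or HCC44 DMSO replicate 2 (-2.16). RPL7L1 and RPL36AL were the paralogs that were higher in HCC44, at 0.86 and 0.63. The RPL22 pair went opposite ways: RPL22 was higher in HCC44 and RPL22L1 lower (-0.57).

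**Figure D5:**
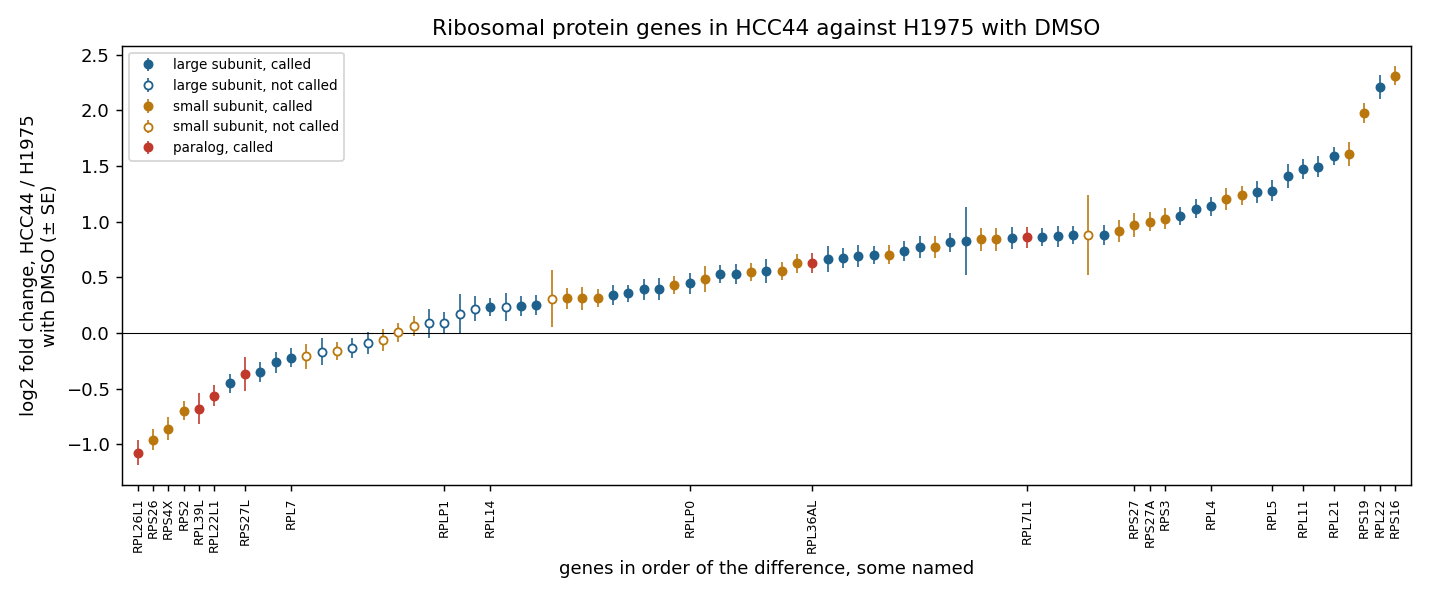
Log2 fold change of HCC44 over H1975 with DMSO, with SE, for 83 ribosomal protein genes in order (RPL3L, at -3.13, is left out for scale). Filled symbols were called; values run from -1.07 for RPL26L1 to 2.31 for RPS16, and most lie above 0.

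By chromosome, all 5 members on chromosome 1 were higher in HCC44, from 0.97 for RPS27 to 2.21 for RPL22. All 5 on chromosome 11 were higher, from 0.70 for RPLP2 to 1.03 for RPS3. The same held for all 4 members on chromosome 9, all 3 on chromosome 4 and the 2 on chromosome 14. On chromosome 17, 5 of 6 were higher. Chromosomes 8 and 12 each had 2 higher and 2 lower, and chromosome 16 had 1 higher and 2 lower. Over members on any chromosome, 57 of 84 were called as higher and 12 as lower. Over all genes tested, on any chromosome, 31.6% were called as higher and 36.4% as lower. Chromosome 19 holds 12 members, of which 7 were higher and 1 lower. RPS16, RPS19, RPL18 and RPL13A, which lie in that order along it, were between 1.05 and 2.31. RPS9, further along, was at 0.31. RPS15, RPL36 and RPS28 before them and RPL28 after them lay between -0.26 and -0.09. The copy number of these regions was not measured here.

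A few members had low counts, and gene models overlap several of them. RPS10 had 97 to 284 counts per library, RPL17 453 to 681 and RPL36A 371 to 1047. In GENCODE release 29, RPS10 shares 39.4% of its exon bases with the readthrough gene RPS10-NUDT3, RPL17 35.3% with other genes and RPL36A 8.4% with RPL36A-HNRNPH2. The readthrough rows themselves held 0 counts, except 1 count for RPS10-NUDT3 in HCC44 DMSO replicate 1. Reads that the counter could not give to a single gene made up 4.98% to 5.42% of each table's total. None of these 3 genes was called with ACBI1 in either line.

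Processed pseudogenes of these genes are numerous, and 641 of 1604 such rows had a count. They took 0.0312% to 0.0504% of gene counts. RPLP0P2 fell in both lines, from 42.8 and 46.3 CPM to 7.10 and 6.29 CPM in H1975 (-2.73 ± 0.20) and from 64.5 and 46.2 CPM to 5.89 and 4.11 CPM in HCC44 (-3.47 ± 0.20), while RPLP0 itself changed by -0.20 and -0.26. RPS2P5 had 8471 to 10232 counts in the HCC44 libraries and 34 to 55 in H1975. RPS2, by contrast, was lower in HCC44, and with pseudogene counts added to the parent genes 70 members were called between the lines, 58 higher and 12 lower.

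FAU, a small-subunit protein outside the naming rule, was called in neither line (adjusted p 0.157 and 0.0679). It was at 168, 183, 191 and 216 CPM in H1975 and 190, 182, 168 and 139 CPM in HCC44, and its response differed between the lines (-0.49 ± 0.15, adjusted p 0.0456). That call was lost without H1975 DMSO replicate 1 (-0.42), H1975 ACBI1 replicate 2 (-0.42), HCC44 DMSO replicate 1 (-0.46), HCC44 DMSO replicate 2 (-0.51) or HCC44 ACBI1 replicate 2 (-0.36).

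Several translation factors and RNA-binding proteins also have TOP messages. Of 15 tested, 8 were called as lower in H1975 and 3 in HCC44, and none as higher by edgeR, by DESeq2 or at an unadjusted p under 0.05. Of all genes, 16.7% and 17.4% were called as lower. The list's medians were -0.24 and -0.02. HNRNPA1, an RNA-binding protein with a TOP message, fell from 797 and 699 CPM to 523 and 394 CPM in H1975 (-0.71 ± 0.14, adjusted p 0.00307). PABPC1, the poly(A)-binding protein, fell in H1975 (-0.46) and HCC44 (-0.32), but the H1975 call was lost without H1975 DMSO replicate 2 (-0.34) or ACBI1 replicate 1 (-0.40), and the HCC44 call without HCC44 DMSO replicate 2 (-0.23) or ACBI1 replicate 1 (-0.28). The 10 non-coding host genes with TOP tracts include GAS5 and the SNHG genes: 3 were called as higher in H1975 and 3 as lower in HCC44, and the difference was called for 4, all more negative in HCC44. The shares called, 30% in each line and 40% for the difference, stand beside 31.3%, 34.9% and 18.6% of all genes. By direction, 14.6% of all genes were higher in H1975, 17.4% lower in HCC44 and 8.4% more negative in HCC44.

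Ribosome assembly needs many further factors. Of 53 assembly factors, 20 were called as higher and 5 as lower in H1975, and 5 as higher and 12 as lower in HCC44. The difference was called for 20, of which 17 were more negative and 3 more positive in HCC44. The shares called, 47.2%, 32.1% and 37.7% for the difference, stand beside 31.3%, 34.9% and 18.6% of all genes. By direction, 14.6% of all genes were higher and 16.7% lower in H1975, and 17.5% and 17.4% in HCC44. For the difference, 8.4% of all genes were more negative and 10.2% more positive in HCC44. RIOK1, a kinase of late small-subunit maturation, went from 25.3 and 27.3 CPM to 52.8 and 55.9 CPM in H1975 (1.05 ± 0.10). BOP1, of the large subunit's PeBoW complex, rose in both lines (0.68 and 0.46), whereas SBDS, which releases EIF6 from new large subunits, fell in both (-0.43 and -0.68), its H1975 call being lost without H1975 DMSO replicate 2 (-0.35) or ACBI1 replicate 2 (-0.35). EIF6 fell as well (-0.38 and -0.47), and its H1975 call was lost without H1975 DMSO replicate 2 (-0.32), ACBI1 replicate 1 (-0.36) or ACBI1 replicate 2 (-0.34). Of the 14 RNA polymerase I genes, which transcribe ribosomal RNA, 6 were higher in H1975 (42.9% called, against 31.3% of all genes). In HCC44, 3 were higher and 1 lower (28.6%, against 34.9%). UBTF, the polymerase's promoter factor, rose in HCC44 from 90.9 and 86.3 CPM to 136 and 151 CPM (0.70 ± 0.086) and was not called in H1975.

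Regulators of the set were read from 2 further lists. MYC, a known activator of ribosomal protein genes, averaged 1498 CPM with DMSO and 2016 CPM with ACBI1 in H1975, without overlap (0.43, adjusted p 0.0309) and was at 2202 and 1599 CPM, then 2886 and 2801 CPM, in HCC44 (0.58, adjusted p 0.00617). The H1975 call was lost without DMSO replicate 1 (0.34), ACBI1 replicate 1 (0.49) or ACBI1 replicate 2 (0.42), and the HCC44 call without DMSO replicate 2 (0.37). MXD1, a MYC antagonist, fell in both lines (-1.78 and -1.38). Of 14 genes linking mTORC1 to TOP messages, 1 was higher and 4 lower in H1975 (35.7% called, against 31.3% of all genes), and 2 higher and 5 lower in HCC44 (50%, against 34.9%). LARP1, the TOP-binding repressor, fell in HCC44 from 544 and 536 CPM to 404 and 417 CPM (-0.39 ± 0.082, adjusted p 0.00366).

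The mitochondrial ribosome has its own proteins, also encoded in the nucleus. Of 77 such genes tested, 16 were called as higher and 2 as lower in H1975 (23.4%, against 31.3% of all genes), and 3 as higher and 13 as lower in HCC44 (20.8%, against 34.9%). Their summed share was 0.389% and 0.399% of gene counts with DMSO and 0.516% and 0.525% with ACBI1 in H1975, and between 0.359% and 0.376% in all HCC44 libraries. MRPL24 rose most of them in H1975, from 107 and 116 CPM to 193 and 214 CPM (0.86 ± 0.094, adjusted p 0.000112). In HCC44 its change was 0.09.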

How the data were processed

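RNA from 8 libraries was analysed, 2 per group. The authors deposited raw read counts per gene, 1 table per library, made with TopHat2 2.1.1 on hg38 and HTSeq 0.11.0, per the submitters' processing notes. The annotation release and the strand setting are not given in the sources used here, so overlapping, antisense and near-identical genes are uncertain. The 5 summary rows (14.3% to 15.8% of each table) were left out.

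Groups came from the labels. edgeR 4.0.16 in R 4.3.3 was run on the counts with filterByExpr, TMM factors, 1 mean per group over all 8 libraries (4 residual degrees of freedom), robust quasi-likelihood F-tests and Benjamini-Hochberg adjustment over 21307 genes, called under 0.05. An SE is the log2 fold change divided by the square root of F. CPM values are TMM-scaled, marker sums use library totals. The procedure was tested on simulated counts. Replicates differed by more than sampling noise (chi-square per degree of freedom 21.7 to 43.5 over all genes and 74.6 to 276 over members).

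The members and lists were chosen with earlier results of these data known. Named genes are members with a fixed role, the 5 called members with the largest rise and the 5 with the largest fall per contrast (at least 5 CPM in a group, libraries not overlapping), the 5 with most counts, and the 2 largest called rises and falls of each other list. Alternatives were DESeq2 1.42.0, other scalings and filters, fits within each line, a replicate block, dispersion without robust estimation, removal of GC and length trends (lowess span 0.3), a threshold of 0.01, each library left out, and, chosen after seeing the data, pseudogene counts added to parent genes. Gene positions are RefSeq's. Overlaps and transcript lengths are from GENCODE release 29, which matched 57038 of 61228 names. A protein sequence table was not used here, and some genes of the set are not reported by name here.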

Additional observations from a re-analysis of the deposited data

Results flagged for a closer look

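These results were marked because H1975 and HCC44 responded differently to ACBI1 by a test of the difference itself (log2 fold change in HCC44 minus that in H1975, edgeR, Benjamini-Hochberg over all genes). Among the ribosomal protein genes these were RPL14 (0.51, adjusted p 0.014), RPS4X (0.51, adjusted p 0.0309) and RPL7 (0.46, adjusted p 0.02), and none of these 3 held without each library in turn. FAU, the small-subunit protein outside the naming rule, differed by -0.49 (adjusted p 0.0456). Among the pseudogenes, RPL13AP20 differed by -1.48 (adjusted p 0.00639), with 1.88 to 2.26 CPM in H1975 and a fall from 15.3 and 16.8 CPM to 7.09 and 5.00 CPM in HCC44.

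Among genes that carry TOP tracts, HNRNPA1 differed by 0.82 (adjusted p 0.0143), SNHG8 by -0.78 (adjusted p 0.0324) and ZFAS1 by -0.69 (adjusted p 0.00888). In the RNA polymerase I list TAF1A differed by -1.10 (adjusted p 0.00115) and UBTF by 0.83 (adjusted p 0.00145). Among assembly factors RIOK1 differed by -0.68 (adjusted p 0.0096), PNO1 by -0.86 (adjusted p 0.00356) and EBNA1BP2 by 0.64 (adjusted p 0.00598). In the MYC network MXD4 differed by 0.82 (adjusted p 0.0168) and MGA by -0.72 (adjusted p 0.014). Among mitochondrial ribosomal proteins MRPL24 differed by -0.78 (adjusted p 0.00321), MRPL33 by -0.77 (adjusted p 0.00609) and MRPS33 by -0.98 (adjusted p 0.000791). Without HCC44 DMSO replicate 2 the HNRNPA1 difference was 0.71 and not called, and without HCC44 DMSO replicate 1 that of MGA was -0.68 and not called. The SNHG8 call was lost without 4 libraries in turn (-0.69 to -0.58) and the MXD4 call without 5 (0.59 to 0.85).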

How the results depend on the processing

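Values are counts of members called higher and lower. In H1975 (3 and 6) they were 5 and 3 under upper-quartile scaling, 12 and 1 under library totals, 4 and 20 with a replicate block, and 2 and 3 at an adjusted p under 0.01, and with 1 library left out 2 to 4 and 2 to 4. In HCC44 (4 and 9) they were 7 and 5, 8 and 4, 8 and 18, and 3 and 4 in the same order, and with 1 library left out 1 to 4 and 2 to 6. For the difference between the lines (3 and 0) they were 3 and 2, 1 and 8, 11 and 7, and 0 and 0. For that difference they were also 5 and 0 with no filter, 3 and 2 with 1 CPM in 2 libraries and 1 and 1 with GC and length trends removed, and 0 to 3 and 0 to 1 with 1 library left out. Between the lines with DMSO (57 and 12) they were 52 to 58 and 7 to 9 with 1 library left out. With 1 library of the compared groups left out, fewer of all genes were called too in H1975, in HCC44 and between the lines. The share difference in HCC44 was 0.014 percentage points with the 5 members of most counts left out, against 0.0765. The cause of these moves was not tested, except that a stricter threshold leaves fewer calls by construction. Same-numbered libraries deviated together in H1975 (correlation 0.374 over all genes tested, 0.91 over members) and in HCC44 (0.109 and 0.299), but with 2 pairs a line and no batch named in the labels the numbers were not taken as pairs. Of the alternative values of the main counts and shares, 117 moved little and 37 moved more, by over 1.5 times for a count or by over 1 SD for a median or share. With library totals the balance of higher and lower calls turned over in H1975, in HCC44 and for the difference. Over all 21307 genes that setting gave 5427 higher and 2080 lower, 4534 and 2964, and 1723 and 2530 in the same order. The TMM scale gave 3107 and 3556, 3720 and 3718, and 2178 and 1789. The block gave more calls over all 21307 genes too, at 4273 higher and 4830 lower in H1975 and 4749 and 4784 in HCC44. For the difference it gave 3481 and 2877. With the block, the RPS27L difference was called (0.50). Of the calls on members, 2 of 9 in H1975, 3 of 13 in HCC44, 0 of 3 for the difference and 56 of 69 between the lines held in every alternative. With 2 libraries a group, the median SE of a member's log2 fold change was 0.093.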
